A study of Mus musculus with 48 samples.

Results

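The 10 genes described here encode the precursors of hypothalamic peptides that govern feeding and water balance: Npy, Agrp, Pomc, Cartpt, Hcrt, Pmch, Trh, Avp, Oxt and Gal. They were taken by symbol from a count table of 56893 genes, in which all 10 were present, and all 10 were among the 17352 genes that passed a filter on low counts. Messenger RNA was measured by sequencing in 1 brain hemisphere of each of 48 mice aged 5.5 to 8.5 months, 1 library to a mouse. Sex, genotype and feeding state made 12 groups, of 4 mice each; replicate numbers below follow the order of deposit and only name the mice of a group. Controls were labelled Grin1fl/fl, apart from female control unrestricted replicate 2, which was labelled Grin1fl/+, and their labels list no recombinase. Knockouts were labelled Aldh1a1+/P2A-CreERT2::Grin1fl/fl. Their CreERT2, an inducible recombinase, was carried by 1 Aldh1a1 allele, so that loss of Grin1, which every NMDA-type glutamate receptor needs, was limited by design to cells that use Aldh1a1, some midbrain dopamine neurons included. How CreERT2 was induced is not given in the sources used here. All mice were singly housed before collection. Unrestricted mice had chow throughout, restricted mice were taken after 2 nights of food restriction with chow in between, and refed mice then had 3 further days of free access to grain-based pellets. Each state held 16 mice. A whole hemisphere contains the hypothalamus as a small share of its tissue, so levels are given below beside genes that mark hypothalamus and pituitary.

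In the arcuate nucleus, neurons that make both Agrp and Npy drive eating, and neurons that make Pomc and, in many cases, Cartpt restrain it. The melanocortin cut from the Pomc precursor activates the receptors Mc3r and Mc4r, which the Agrp protein blocks, and in arcuate tissue food deprivation is known to raise Agrp and Npy and to lower Pomc. Hcrt (orexin) and Pmch (melanin-concentrating hormone) are made in the lateral hypothalamus and act on arousal and feeding. Trh, which drives the thyroid axis, Avp (vasopressin, which retains water) and Oxt (oxytocin) are made in the paraventricular nucleus, Avp and Oxt also in the supraoptic nucleus. Several of these genes are also used elsewhere: Npy in interneurons of cortex and striatum, Pomc in the pituitary, and Gal in brainstem noradrenergic neurons.

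Avp and Oxt are neighbours on chromosome 2, on opposite strands and 3565 bases apart, with Oxt at chr2:130418091-130418974 on the plus strand and Avp at chr2:130422540-130424640 on the minus strand (GRCm39, GENCODE M39). Their canonical transcripts hold the same 127 bases of coding sequence, across exons 1 and 2 of each gene. The run is shown because the bases of a read that falls inside it do not tell the genes apart. It makes up 97 stretches of 31 bases, which are 13.6% of those in the Avp transcript and 19.06% of those in the Oxt transcript. The sequence of the shared run, written 5′ to 3′ with no base in capitals, is the following.
Avp and Oxt shared run: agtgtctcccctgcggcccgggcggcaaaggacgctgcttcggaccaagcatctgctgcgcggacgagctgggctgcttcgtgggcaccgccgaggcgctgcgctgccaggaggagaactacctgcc

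Promoters came from a RefSeq table on GRCm38.p6, which held 9 of the 10 members; Agrp was not among them. The 250 bases before the start site are shown for Avp, Oxt, Hcrt and Pmch, the members of the 4 highest pairwise correlations of levels over the 48 libraries, given below with their values without male control refed replicate 1. The windows lie at chr2:130582589-130582838 (minus strand), chr2:130575919-130576168 (plus), chr11:100762932-100763181 (minus) and chr10:88090822-88091071 (plus). Capitals mark matches on either strand to 4 motifs. TATAAA is the core promoter box that binds the general transcription machinery. AGGTCA is the half-site of nuclear receptors. TGACGTCA is the cyclic AMP response element, and CACGTG is an E-box. None of the matches shown overlap.
Avp: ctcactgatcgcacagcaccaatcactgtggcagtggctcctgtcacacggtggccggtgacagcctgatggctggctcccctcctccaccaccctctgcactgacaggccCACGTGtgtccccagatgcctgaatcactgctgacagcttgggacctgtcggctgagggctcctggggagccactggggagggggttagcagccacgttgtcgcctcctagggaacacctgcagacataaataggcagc
Oxt: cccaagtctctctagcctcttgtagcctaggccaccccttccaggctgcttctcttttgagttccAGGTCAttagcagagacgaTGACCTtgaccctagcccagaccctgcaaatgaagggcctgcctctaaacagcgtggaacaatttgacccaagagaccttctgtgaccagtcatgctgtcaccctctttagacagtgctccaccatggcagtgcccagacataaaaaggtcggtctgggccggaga
Hcrt: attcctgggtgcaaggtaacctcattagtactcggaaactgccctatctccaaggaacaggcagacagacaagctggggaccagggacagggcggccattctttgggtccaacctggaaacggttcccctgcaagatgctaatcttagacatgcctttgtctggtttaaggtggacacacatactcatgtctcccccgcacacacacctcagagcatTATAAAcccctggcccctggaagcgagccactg
Pmch: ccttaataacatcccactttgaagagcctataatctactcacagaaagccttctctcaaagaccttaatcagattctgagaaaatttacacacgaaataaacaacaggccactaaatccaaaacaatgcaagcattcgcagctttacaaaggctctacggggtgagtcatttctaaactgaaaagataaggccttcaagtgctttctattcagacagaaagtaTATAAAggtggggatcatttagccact

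No motif of these 4 was found in all of the windows shown. TATAAA stood 33 bases before the start site of Hcrt and 27 bases before that of Pmch, and it is found in 13.62% of the 32851 promoters of the table, taken over windows that also hold the 50 bases after the start. Oxt held AGGTCA on the forward strand and again on the reverse strand, at 185 and 166 bases before the start, and this half-site is found in 16.26% of promoters. Avp held CACGTG 139 bases before the start, found in 7.15% of promoters. Among the other members, TGACGTCA stood 112 bases before the start of Cartpt (1.79% of promoters), Pomc held TATAAA and AGGTCA at 25 and 62 bases before its start, and Trh held AGGTCA on the reverse strand at 57 bases. Npy and Gal held none of the 4. A match describes the letters of the window and is no evidence of binding.

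Total counts per library lay between 7574827 and 16185373, with a median of 10515486. Grin1 was at 350.9 ± 49.3 CPM (the count scaled to a common library size of 1000000) in controls and 356 ± 29.4 CPM in knockouts (SD, n = 24 each), which gives no check of its loss from a small population of cells. Aldh1a1, which carries the recombinase, was at 190 ± 27.3 and 101 ± 16.7 CPM. The neuronal gene Snap25 was between 2354 and 3919 CPM in all 48 libraries. Transcripts of the pituitary were high in some of them: Gh + Prl, which encode hormones of the anterior pituitary, had a median of 7.19 CPM, and in 6 libraries they were over 10 times that median, between 146 and 1239 CPM. These were female control unrestricted replicates 1 and 2, female knockout unrestricted replicate 4, female knockout restricted replicate 4, male control restricted replicate 4 and male knockout refed replicate 3, so that 3 were unrestricted, 2 restricted and 1 refed, and they are called the pituitary libraries below. A hypothalamic score, the mean centred log2 CPM of Otp, Nkx2-1, Irs4 and Magel2 (the 4 of 12 listed hypothalamic marker genes that passed the filter), ranged from -0.66 to 0.70. Its mean was -0.03 ± 0.37 in unrestricted, 0.01 ± 0.31 in restricted and 0.01 ± 0.28 in refed mice (SD, n = 16 each). Male control refed replicate 1 stood apart with 1143 CPM of the skeletal muscle gene Acta1, which had a median of 6.06 CPM. Its score of -0.57 was low but not the lowest, which was that of female control unrestricted replicate 3 at -0.66. Where a result rests on these libraries it is in many cases also given without them.

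Levels of the members were compared with each other per kilobase of the GENCODE canonical transcript, which need not be the model behind the authors' counts. In unrestricted mice Pmch was highest at 57.0 ± 18.3 CPM per kilobase, followed by Npy at 42.99 ± 6.84 CPM per kilobase (SD, n = 16). Their ranges of mean ± 1 SD overlapped, no test of the difference was made, and both means stood above those of all other members. Hcrt at 11.4 ± 4.18, Cartpt at 10.7 ± 3.72, Oxt at 10.6 ± 6.69 and Avp at 8.36 ± 3.04 CPM per kilobase followed, and no neighbours among these differed beyond their spread. Trh was at 5.54 ± 1.95 and Gal at 3.59 ± 1.28 CPM per kilobase, and their ranges of mean ± 1 SD overlapped. Agrp was lowest at 0.445 ± 0.206 CPM per kilobase. The Pomc mean of 8.74 ± 15.9 CPM per kilobase was set by the pituitary libraries, and over all 48 libraries its median was 2.45 CPM per kilobase. The counts behind these levels differed accordingly: the median over the 48 libraries was 422.5 counts of Pmch, 241 of Npy, 121.5 of Cartpt, 52.5 of Oxt, 26.5 of Gal and 4 of Agrp.

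The feeding states were compared first, over both sexes and both genotypes, with edgeR's quasi-likelihood test on all 48 libraries; a gene was called at an adjusted p under 0.05 over all 17352 genes. Agrp was the 1 member that edgeR called: it rose with restriction and fell with refeeding. In restricted against unrestricted mice 1 of the 10 members was called, where 15.2% of all genes tested were, and in refed against restricted mice it was again 1 of 10, against 15.2% of all genes. With restriction DESeq2 called 1 member (Agrp) and limma 0. With refeeding DESeq2 called 1 (Agrp) and limma 1, which was Npy and not Agrp. A member that was not called is not shown to be unchanged. In refed against unrestricted mice edgeR called 0 of 10 members, against 0.738% of all genes, with 1 member (Npy) at an unadjusted p under 0.05; DESeq2 called 0 and limma 1. The median log2 change of the members was -0.07, -0.21 and -0.23 in the 3 comparisons, beside -0.00046, -0.0010 and -0.00040 for all genes tested. The first 2 comparisons share the restricted libraries. In a hemisphere, fewer cells of a type and less RNA per cell cannot be told apart.

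**Figure D1:**
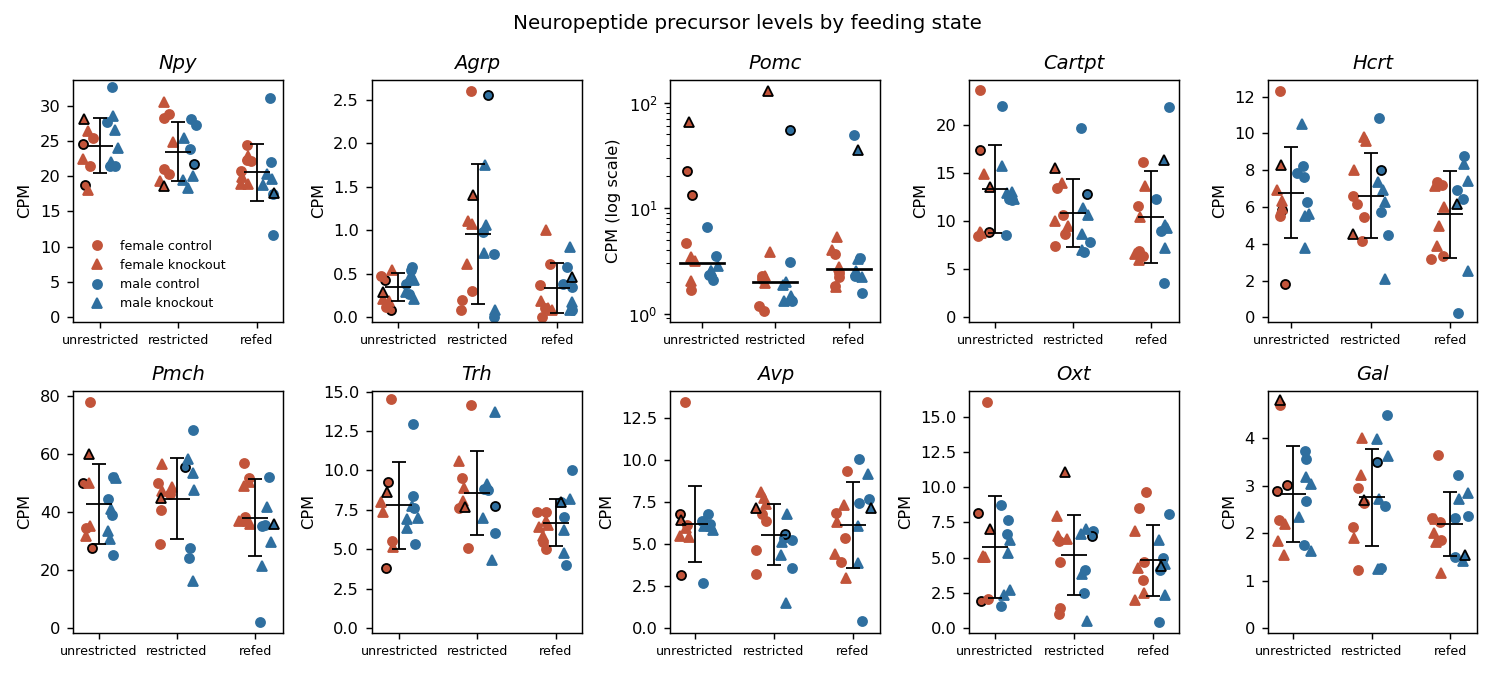
Level of each precursor in CPM (vertical axis, log scale for Pomc only) in unrestricted, restricted and refed mice, 16 libraries per state; colour gives sex, shape gives genotype and a black outline marks the 6 libraries with high Gh + Prl. Horizontal lines with bars are the mean ± SD, and for Pomc the line is the median; 11 of 16 restricted libraries lie above the highest unrestricted value of Agrp, 0.583 CPM.

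Agrp, whose protein blocks the melanocortin receptors, was at 0.0851, 0.336 and 0.583 CPM (lowest, median, highest) in unrestricted mice, at 0, 0.863 and 2.60 CPM in restricted mice, and at 0, 0.266 and 1.00 CPM in refed mice. Of the 16 restricted libraries, 11 lay above the highest unrestricted library and 7 above the highest refed library, but 3 lay below the lowest unrestricted library, so the states overlapped. The restricted female controls were at 0.308, 0.202, 2.60 and 0.0850 CPM and the restricted male controls at 0.732, 0, 0.983 and 2.56 CPM. The restricted female knockouts were at 1.08, 1.11, 0.609 and 1.40 CPM and the restricted male knockouts at 0.743, 1.75, 1.06 and 0.0833 CPM. All 4 restricted female knockouts thus lay above every unrestricted mouse, while each of the other restricted groups held at least 1 mouse below the lowest unrestricted value. Those low restricted values came from 0 or 1 counts and the lowest unrestricted value from 1 count. Their order therefore rests on single reads and library size, and no difference between groups can be read from it. The mean of Agrp was 0.346 ± 0.160 CPM in unrestricted, 0.957 ± 0.808 in restricted and 0.337 ± 0.291 in refed mice (SD, n = 16 each).

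The log2 change of Agrp was 1.37 ± 0.41 (standard error) in restricted against unrestricted mice (edgeR, adjusted p = 0.0178) and -1.44 ± 0.42 in refed against restricted mice (adjusted p = 0.0140). In refed against unrestricted mice it was -0.08, with a 95% interval from -1.07 to 0.92. Both Agrp calls held with the hypothalamic and the pituitary score in the fit, with log2 changes of 1.34 (adjusted p = 0.00336) and -1.38 (adjusted p = 0.00297). The calls rested on few reads and few libraries: Agrp counts ranged from 0 to 30 per library with a median of 4, and 2 libraries were at 0, female control refed replicate 2 and male control restricted replicate 2, where 0 counts allow up to 0.328 and 0.238 CPM. Without the 6 pituitary libraries, of which male control restricted replicate 4 at 2.56 CPM of Agrp is 1, the log2 changes were 1.05 (adjusted p = 0.170) and -1.21 (adjusted p = 0.0823), and with the hypothalamic score added to that fit they were 1.10 (adjusted p = 0.0687) and -1.18 (adjusted p = 0.0335). Without female control restricted replicate 3, at 2.60 CPM, they were 0.95 (adjusted p = 0.127) and -1.02 (adjusted p = 0.101), and without male control restricted replicate 4 alone the first was 1.13 (adjusted p = 0.0560). Limma with sample weights gave 0.73 (adjusted p = 0.230) and -1.06 (adjusted p = 0.0622).

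Library numbers in the labels ran in parallel with refeeding. All 16 refed libraries were numbered up to 28, while 9 of 16 restricted and 11 of 16 unrestricted libraries were numbered from 29. The labels do not say whether these numbers mark a batch, and the cut into blocks lies at the last refed library. The difference between blocks is therefore fitted from restricted and unrestricted mice only. Agrp in restricted mice was at 0.654 ± 0.397 CPM (SD, n = 7) in libraries up to 28 and at 1.19 ± 0.981 CPM (SD, n = 9) in those from 29. In refed mice, all in the first block, Agrp was at 0.337 ± 0.291 CPM (n = 16). In unrestricted mice the corresponding Agrp values were 0.262 ± 0.173 CPM (n = 5) and 0.384 ± 0.146 CPM (n = 11). With that block in the fit the change of Agrp with restriction was 1.49 (edgeR, adjusted p = 0.00692), and the change with refeeding was -0.85 (adjusted p = 0.295). The 3 restricted libraries under the lowest unrestricted value held 0 or 1 counts of Agrp. They were male control restricted replicate 2, male knockout restricted replicate 4 and female control restricted replicate 4, with hypothalamic scores of -0.43, -0.51 and -0.25. The Agrp gene model on chromosome 8 (chr8:106293326-106364065, minus strand) spans 70740 bases and holds Ripor1 and part of Ctcf on the opposite strand. Whether strand was used in counting is not given in the sources used here, so reads of these genes may be part of the Agrp counts. On the same strand the model overlaps Gm5914, a long noncoding RNA gene, and Gm45855, a processed pseudogene, which a strand setting alone would not separate. All of these overlaps are of whole gene spans, and whether exons overlap was not examined.

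Npy, the peptide made by the same arcuate neurons as Agrp, lies at chr6:49799026-49806489. It was at 18.1, 24.2 and 32.6 CPM (lowest, median, highest) in unrestricted mice, at 18.3, 22.8 and 30.5 CPM in restricted mice and at 11.6, 20.1 and 31.1 CPM in refed mice. No restricted library lay above the highest or below the lowest unrestricted library, and 14 of 16 refed libraries lay below the unrestricted median. The log2 change of Npy with restriction was -0.05, with a 95% interval from -0.23 to 0.13. For the whole hemisphere, a rise of the size seen for Agrp lay outside this interval. Npy is also made in interneurons of cortex and striatum, and in unrestricted mice it was at 42.99 CPM per kilobase beside 0.445 for Agrp. A rise confined to arcuate neurons could therefore be missed in this value. In refed mice Npy differed by -0.20 from restricted mice (standard error 0.09, edgeR adjusted p = 0.134) and by -0.24 from unrestricted mice (standard error 0.09, adjusted p = 0.224). Male control refed replicate 1 held the lowest refed value, 11.6 CPM, and male control refed replicate 2 the highest, 31.1 CPM. Of 48 edgeR fits that each dropped 1 library, only the fit that dropped replicate 2 called Npy. The log2 changes of Npy were then -0.27 (adjusted p = 0.0145) and -0.32 (adjusted p = 0.0211). Over the other fits of this kind the changes were as small as -0.15 and -0.20, with adjusted p up to 0.247 and 0.368. Limma gave -0.22 (adjusted p = 0.0277) and -0.23 (adjusted p = 0.0459), and with the block of library numbers they were -0.20 (adjusted p = 0.243) and -0.24 (adjusted p = 0.604).

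Pomc (chr12:4004944-4010642), the precursor of the melanocortins and of corticotropin, was at 1.68, 3.01 and 65.3 CPM (lowest, median, highest) in unrestricted mice, at 1.06, 1.98 and 128.8 CPM in restricted mice and at 1.58, 2.63 and 48.9 CPM in refed mice. The highest value of each state stood far above its median. Over all 48 libraries the log2 change of Pomc with restriction was -0.08, with a 95% interval from -1.43 to 1.26, and with refeeding it was -0.02, with an interval from -1.58 to 1.55, intervals that hold both marked rises and marked falls. Without the 6 pituitary libraries the restricted mice were at 1.94 ± 0.771 CPM (SD, n = 14), the unrestricted at 3.07 ± 1.33 (n = 13) and the refed at 5.87 ± 11.9 CPM (n = 15), the last set by male control refed replicate 2 at 48.9 CPM. In that fit the log2 change of Pomc was -0.67 with restriction (adjusted p = 0.323) and 1.15 with refeeding (adjusted p = 0.0395).

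Male control refed replicate 2 had 48.9 CPM of Pomc beside 13.7 CPM of Gh + Prl, under the limit that marked the pituitary libraries. It was also the highest of the 48 libraries in Snap25, at 3919 CPM. Leaving it out as well, a choice made after the values were seen, gave a log2 change of Pomc with restriction of -0.67 ± 0.21 (standard error; edgeR, adjusted p = 0.0250). The change with refeeding was then 0.51 ± 0.20 (adjusted p = 0.0802), and refed against unrestricted mice it was -0.16 (adjusted p = 0.688). Of the 14 restricted libraries that were no pituitary libraries, 6 lay below the lowest unrestricted library and 2 lay above the unrestricted median. Fitting the pituitary score in place of leaving libraries out gave -0.06 with restriction (adjusted p = 0.941), so among the fits over both sexes the lower Pomc of restricted mice was called only with these 7 libraries left out.

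Cartpt (chr13:100034990-100047006), whose peptides accompany the melanocortins, was at 13.3 ± 4.61 CPM in unrestricted, 10.9 ± 3.51 CPM in restricted and 10.4 ± 4.76 CPM in refed mice (SD, n = 16 each). The states overlapped widely, with 4 of 16 restricted libraries below the lowest unrestricted one and none above the highest. The log2 change was -0.31 with restriction, with a 95% interval from -0.69 to 0.06 (edgeR, adjusted p = 0.290), and -0.36 in refed against unrestricted mice, with an interval from -0.73 to 0.02 (adjusted p = 0.414). The second Cartpt difference was called, at -0.59 (adjusted p = 0.0315), only where the pituitary libraries and male control refed replicate 2 were left out and the hypothalamic score was fitted.

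Of the lateral hypothalamic pair, Hcrt (chr11:100651895-100653762) was at 6.77 ± 2.47 CPM in unrestricted, 6.62 ± 2.30 in restricted and 5.61 ± 2.37 in refed mice (SD, n = 16 each). The changes of Hcrt were -0.06 with restriction (95% interval -0.51 to 0.38) and -0.22 with refeeding (interval -0.67 to 0.24). Pmch (chr10:87926933-87928237, inside Parpbp on the opposite strand) was at 42.8 ± 13.7, 44.6 ± 13.9 and 38.1 ± 13.4 CPM in the same order. The changes of Pmch were 0.06 (95% interval -0.34 to 0.45) and -0.24 (interval -0.64 to 0.15). Neither gene passed the test in either comparison. The lowest value of both, 0.249 CPM of Hcrt from 3 counts and 2.08 CPM of Pmch, belonged to male control refed replicate 1, and without it the changes with refeeding were -0.12 for Hcrt (adjusted p = 0.735) and -0.15 for Pmch (adjusted p = 0.588).

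Trh (chr6:92219021-92221631), the releasing hormone of the thyroid axis, was at 7.78 ± 2.74 CPM in unrestricted, 8.57 ± 2.65 in restricted and 6.69 ± 1.51 in refed mice (SD, n = 16 each). The change of Trh with refeeding was -0.35 ± 0.15 (standard error; edgeR, adjusted p = 0.124). It was -0.33 with both scores in the fit (adjusted p = 0.0541), and -0.41 (adjusted p = 0.0205) where the pituitary libraries and male control refed replicate 2 were left out and the hypothalamic score was fitted. With restriction the change was 0.13, with a 95% interval from -0.18 to 0.43.

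Avp was at 6.21 ± 2.26 CPM in unrestricted, 5.56 ± 1.81 in restricted and 6.15 ± 2.55 in refed mice, and Oxt at 5.74 ± 3.61, 5.22 ± 2.84 and 4.82 ± 2.53 CPM (SD, n = 16 each). With restriction the log2 change of Avp was -0.18 (95% interval -0.60 to 0.23) and that of Oxt -0.21 (interval -0.81 to 0.38). With refeeding they were 0.17 (interval -0.24 to 0.59) and -0.05 (interval -0.66 to 0.56). Neither hormone passed the test in these comparisons, and it is uncertain how reads were divided between them over the shared run printed above. Gal (chr19:3459912-3464881) was at 2.83 ± 1.01, 2.76 ± 1.02 and 2.20 ± 0.673 CPM, and in refed mice 13 of 16 libraries lay below the unrestricted median. The log2 difference of Gal between refed and unrestricted mice was -0.36, with a 95% interval from -0.73 to 0.01 (edgeR, adjusted p = 0.394).

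**Figure D2:**
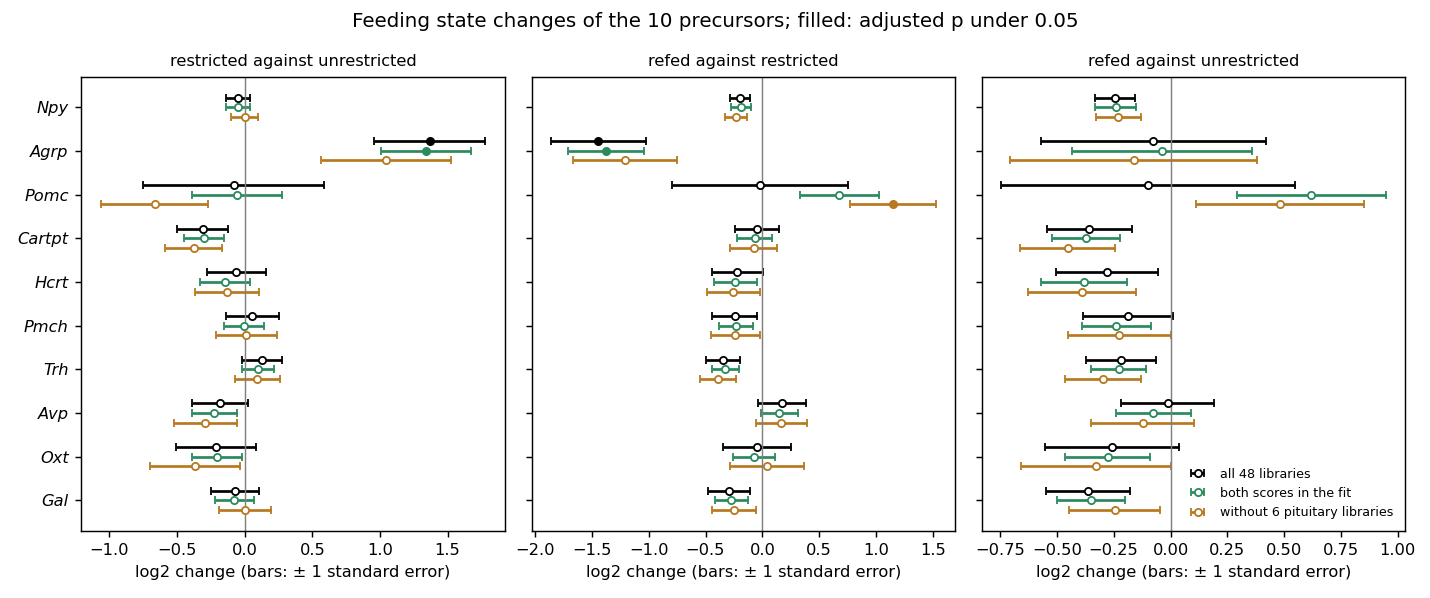
Log2 change of each precursor (horizontal axis, bars ± 1 standard error) in the 3 comparisons of feeding states, fitted with edgeR on all 48 libraries, with both tissue scores in the fit, and without the 6 pituitary libraries; filled points have an adjusted p under 0.05. Agrp is filled in the first 2 panels with all libraries and with both scores, and Pomc without the pituitary libraries in the second panel, at 1.15.

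Within each sex no member was called in any of the 3 comparisons (edgeR, 0 of 10 in each). Called genes made up 6.27%, 6.10% and 0.0403% of all genes tested in females, for restriction, for refeeding and for refed against unrestricted mice, and 8.28%, 8.33% and 0.167% in males. The number of members with an unadjusted p under 0.05 was 1, 2 and 1 in females and 1, 1 and 2 in males; DESeq2 called 0 in all 6, and limma called 1 (Npy in refed against unrestricted males) and 0 elsewhere. Agrp changed by a log2 value of 1.51 with restriction and -1.49 with refeeding in females (adjusted p = 0.150 and 0.160), and by 1.22 and -1.40 in males (adjusted p = 0.179 and 0.123). Trh changed by -0.48 with refeeding in females (adjusted p = 0.206). Pomc differed by -2.23 between refed and unrestricted females (adjusted p = 0.816) and by 2.03 between refed and unrestricted males (adjusted p = 0.331); the female unrestricted mice held 3 pituitary libraries and the male unrestricted mice 0. The test of sex by feeding state called 0 of 10 members and 0% of all genes, with 1 member, Pomc, at an unadjusted p of 0.00577 (adjusted p = 0.661), and DESeq2 and limma also called 0.

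Pituitary tissue was next set against the members by fitting a pituitary score, log2(Gh + Prl CPM + 1), within the 12 groups and together with the hypothalamic score. Pomc moved with it and the other 9 members did not pass the test. The share of members called was 1 of 10, where 0.0634% of all genes tested were called. Pomc was at 13.2, 22.6, 35.6, 55.3, 65.3 and 128.8 CPM in the 6 pituitary libraries and between 1.06 and 48.9 CPM in the other 42, whose median was 2.31 CPM. Its slope was 0.64 on the log2 scale per unit of the score (standard error 0.05, edgeR, adjusted p = 5.21e-12). The genes whose pattern within groups was most like that of Pomc were Gh, Cga and Prl, with Pearson's r of 0.85, 0.82 and 0.81 over 48 libraries, which share depth and dissection. These r were not computed without the pituitary libraries. Without the 6 libraries the slope of Pomc was 0.64 ± 0.27 (standard error; adjusted p = 1.00), and without male control refed replicate 2 as well it was 0.12 ± 0.15 (adjusted p = 0.950).

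The level of Pomc did not follow that of Gh + Prl closely among the pituitary libraries. Female control unrestricted replicate 1 had 1222 CPM of Gh + Prl and 13.2 CPM of Pomc, while female knockout restricted replicate 4 had 1239 CPM of Gh + Prl and 128.8 CPM of Pomc. Tbx19, a factor of the pituitary cells that make Pomc, was at 0 and 1.40 CPM in this pair of libraries. Cga, the common subunit of several pituitary hormones, was between 2.05 and 23.4 CPM in the 6 libraries and had a median of 0.0985 CPM in the other 42. In male control refed replicate 2 Cga was at 0.851, Tbx19 at 0.284 and Pax7, a factor of the intermediate lobe that brain regions also express, at 2.74 CPM; Pax7 ranged from 0.524 to 3.10 CPM in the 42. The sum of 8 anterior pituitary markers was at 6.83, 15.1 and 1237 CPM (lowest, median, highest) in unrestricted, 5.50, 8.43 and 1262 CPM in restricted and 6.52, 10.8 and 593 CPM in refed mice. Among the 42 libraries Tbx19 was at 0 in 27, Fshb in 32 and Ghrhr, a receptor of growth hormone cells, in 36. The part of other pituitary cells in the Pomc of male control refed replicate 2 was not tested.

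**Figure D3:**
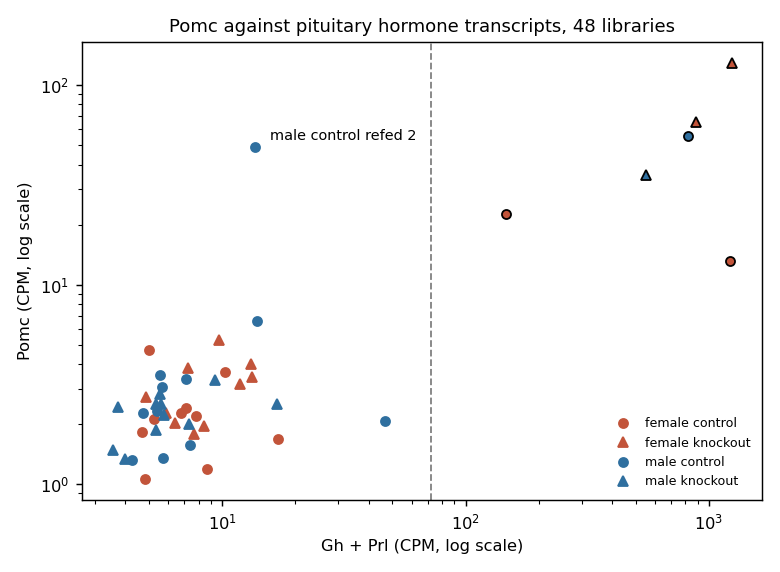
Pomc (vertical axis) against Gh + Prl (horizontal axis), both in CPM on log scales, in 48 libraries; colour and shape give sex and genotype, outlined points are the 6 pituitary libraries and the dashed line is 10 times the median of Gh + Prl. Male control refed replicate 2, at 48.9 CPM of Pomc, lies left of the line among libraries with a median of 2.31 CPM.

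Most members followed the hypothalamic score, fitted within the 12 groups. With the score, 8 of 10 members rose, where 0.576% of all genes tested rose and 1.22% were called in either direction; DESeq2 called 7, with an adjusted p left undefined for 1, and limma 9. The score was built from 4 genes that are no members, and all of its values come from the same libraries, so it describes what varies together and not a response to treatment. Oxt had the smallest p-value, with a slope of 2.46 per unit of the score (standard error 0.28, edgeR, adjusted p = 2.09e-07). Agrp had the largest slope, 2.89 ± 0.56 (standard error; adjusted p = 0.00257). Pmch (1.32), Avp (1.26), Hcrt (1.20), Cartpt (1.12), Gal (1.10) and Trh (0.94) followed, with adjusted p-values from 0.000353 (Pmch) to 0.0159 (Hcrt). Pomc had a slope of 1.29 (adjusted p = 0.231), and limma, which gave 1.82, called it (adjusted p = 0.0134).

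In the 8 libraries with the lowest scores Oxt was at 1.83 ± 1.09 CPM, and in the 8 with the highest at 8.44 ± 3.43 CPM (SD, n = 8 each), and the ranges, 0.415 to 3.39 and 4.54 to 16.05 CPM, did not overlap. Pmch was at 26.2 ± 11.9 and 53.2 ± 15.5 CPM, Gal at 1.72 ± 0.377 and 3.61 ± 0.802 CPM, and Agrp at 0.137 ± 0.139 and 0.694 ± 0.326 CPM at the same ends. The Gal ranges, 1.25 to 2.28 and 2.33 to 4.71 CPM, did not overlap either, and those of the other members did. How many of all genes separate in this way was not counted. The single library highest in Oxt, Pmch, Hcrt, Avp, Trh and Cartpt was female control unrestricted replicate 4, which had the highest score of the 48, and it was at 16.05 CPM of Oxt and 77.8 CPM of Pmch. Both ends held libraries of all 3 feeding states and both genotypes. The Hcrt slope was no longer called without that library (adjusted p = 0.0613) or without male knockout restricted replicate 4 (adjusted p = 0.0532).

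Npy was the 1 member with a slope below 0: it was at 23.9 ± 5.45 CPM at the lowest scores and 21.9 ± 2.29 CPM at the highest, and its slope was -0.23 with a 95% interval from -0.49 to 0.03 (edgeR, adjusted p = 0.388). Without male control refed replicate 1, at 11.6 CPM the lowest in Npy, the slope was -0.39 and was called (adjusted p = 0.0463). The slopes of the other 9 members lay between 0.94 and 2.89, and their intervals did not reach that of Npy. The genes with patterns most like Npy were Ctxn1, Lmo4 and Cck, with Pearson's r of 0.80, 0.80 and 0.78 over 48 libraries. These r were not computed without male control refed replicate 1. Of 5 markers of forebrain interneurons that also make Npy (Sst, Nos1, Chodl, Lamp5, Ndnf), none was called on the score. Since 1.22% of all genes tested were called, this does not set the 5 apart from other genes.

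**Figure D4:**
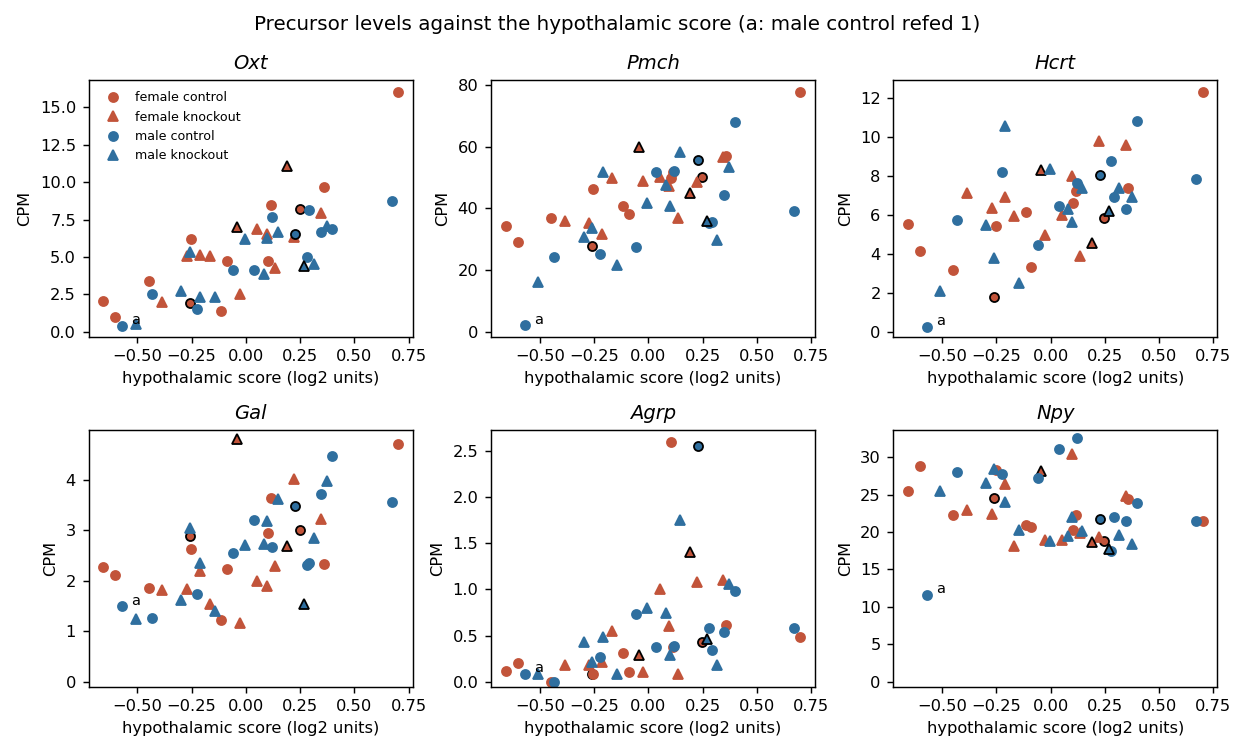
Level of 6 precursors in CPM (vertical axes) against the hypothalamic score (horizontal axis, log2 units) in 48 libraries; colour and shape give sex and genotype, black outlines mark the 6 pituitary libraries, and the letter a marks male control refed replicate 1. Oxt and Pmch rise from left to right, and Npy, between 11.6 and 32.6 CPM, does not.

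Several members went together across libraries of the same group. Pearson's r of log2 CPM within groups, over 48 libraries, was 0.90 for Pmch and Avp, 0.88 for Hcrt and Pmch, 0.87 for Hcrt and Avp, and 0.83 for Avp and Oxt. These values describe libraries that share dissection and depth. Without male control refed replicate 1, in which Hcrt was at 0.249 CPM, Avp at 0.415, Oxt at 0.415 and Pmch at 2.08 CPM, they were 0.76, 0.74, 0.72 and 0.82 over 47 libraries. The remaining pair among these genes that involves Hcrt, Hcrt and Oxt, was lower, at 0.65 over 48 and 0.52 over 47 libraries. Trh had r of 0.71 with Oxt, 0.70 with Avp and 0.68 with Pmch over the 47 libraries, and 0.59, 0.41 and 0.35 over all 48. That library was also the lowest of the 48 in Cartpt, at 3.57 CPM, and in Npy, at 11.6 CPM, and it held 1 count of Agrp. Its Trh at 7.97 CPM and Gal at 1.49 CPM lay within the range of the other libraries. Otp, a marker of hypothalamic neurons, was at 3.49 CPM there beside 0.415 CPM of Nkx2-1. Trh and Gal had Otp as the gene most like them, with r of 0.71 and 0.76 over 48 libraries. Otp is part of the score. The genes most like Agrp were 1700012B09Rik, 2500004C02Rik and Adgrv1 (r of 0.74, 0.71 and 0.70), and those most like Cartpt were Ngb, Stard3nl and 2010204K13Rik (0.75, 0.73 and 0.73). Beside the members themselves, Tac1 was most like Pmch and Hcrt (0.86 and 0.71) and AW551984 most like Oxt (0.76). The r with genes that are no members were not computed without male control refed replicate 1 or without the pituitary libraries.

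The knockout was then compared with the control over all sexes and feeding states. No member passed the test: edgeR called 0 of 10, where 0.00576% of all genes tested were called, with 0 members at an unadjusted p under 0.05, and DESeq2 and limma also called 0. The log2 differences lay between -0.12 for Gal and 0.26 for Pomc. For Npy the difference was -0.09 with a 95% interval from -0.24 to 0.06, for Pmch 0.01 (interval -0.31 to 0.34), for Avp -0.01 (interval -0.35 to 0.33) and for Hcrt 0.04 (interval -0.33 to 0.41). Larger differences could have been missed for Agrp (0.08, interval -0.66 to 0.82) and for Pomc (interval -0.86 to 1.37). The test of genotype by feeding state called 0 of 10 members and 0% of all genes, with 0 members at an unadjusted p under 0.05; DESeq2 and limma called 0. Agrp had an adjusted p of 0.997 in it.

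Males and females were not shown to differ in any member: edgeR, DESeq2 and limma called 0 of 10, where edgeR called 0.357% of all genes tested, and 0 members had an unadjusted p under 0.05. Pmch was at 45.2 ± 11.4 CPM in females and 38.4 ± 15.1 CPM in males (SD, n = 24 each), with a log2 difference of -0.25 and a 95% interval from -0.58 to 0.07 (adjusted p = 0.413). Avp was at 6.28 ± 2.23 and 5.67 ± 2.18 CPM, and Oxt at 5.74 ± 3.48 and 4.78 ± 2.38 CPM. The Pmch difference was called, at -0.49 (adjusted p = 0.0202), only where the pituitary libraries and male control refed replicate 2 were left out and the hypothalamic score was fitted.

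The other genes of these pathways were described by lists. Of 16 receptors for the members' peptides, 14 were tested, 1 rose with restriction and 1 with refeeding, and 0 fell. Over all 17352 genes tested, 1269 were called higher and 1361 lower with restriction, and 1454 higher and 1178 lower with refeeding. The riser with restriction was Mc4r, the melanocortin receptor that Agrp blocks, at 2.36 ± 0.674 CPM in unrestricted, 3.48 ± 0.642 in restricted and 2.93 ± 0.621 CPM in refed mice (SD, n = 16 each), a log2 change of 0.58 ± 0.11 (standard error; edgeR, adjusted p = 0.000194). The other was Npy2r, a receptor through which Npy neurons restrain their own release, which rose by 0.30 with refeeding (adjusted p = 0.0210). Npy2r was not called without the pituitary libraries (adjusted p = 0.0550) or with the block of library numbers (adjusted p = 0.0716). The median change of the receptors with restriction was -0.06.

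Of 10 genes of hormone sensing in arcuate feeding neurons, 9 were tested and 3 rose with restriction, beside 1269 of all 17352 genes tested. Irs2, an adaptor of the insulin receptor, was at 69.7 ± 5.78 CPM in unrestricted, 87.3 ± 8.61 in restricted and 74.2 ± 6.83 CPM in refed mice, with log2 changes of 0.32 with restriction (edgeR, adjusted p = 1.21e-06) and -0.23 with refeeding (adjusted p = 0.000298). The insulin receptor gene Insr rose by 0.14 (adjusted p = 0.0367), and Foxo1, a factor that insulin signalling holds out of the nucleus, by 0.17 (adjusted p = 0.0410). Without the pituitary libraries Insr and Foxo1 were not called (adjusted p = 0.0779 and 0.0820), nor with the block of library numbers (0.0526 and 0.0667), and Foxo1 was not called with both scores fitted (0.0597). These genes are used in many brain cells, and none was called on the hypothalamic score, where 1.22% of all genes tested were. Of 11 genes that cut, amidate or degrade the peptides, all tested, 2 fell with restriction: Prcp, which degrades the melanocortin made from Pomc, with a log2 change of -0.20 (edgeR, adjusted p = 0.0118), and Trhde, which degrades the Trh peptide, with one of -0.13 (adjusted p = 0.0148). None rose, and with refeeding none was called. Of all 17352 genes tested, 1361 were called lower with restriction. Without the pituitary libraries the adjusted p was 0.0839 for Prcp and 0.0517 for Trhde.

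Of 18 other peptide precursors made in the hypothalamus, 10 were tested. Vip, which marks cortical interneurons and the suprachiasmatic nucleus, was at 14.1 ± 2.12 CPM in unrestricted, 17.4 ± 1.89 in restricted and 13.8 ± 2.81 CPM in refed mice, with log2 changes of 0.32 (edgeR, adjusted p = 0.00400) and -0.34 (adjusted p = 0.00214). Tac1, a tachykinin precursor also used in striatum, fell with refeeding, with a log2 change of -0.29 (adjusted p = 0.0400). Its lowest refed value, 19.1 CPM, was that of male control refed replicate 1, and without that library the change of Tac1 was -0.22 (adjusted p = 0.0336). It was not called without the pituitary libraries (-0.27, adjusted p = 0.111) or with the block of library numbers (-0.16, adjusted p = 0.384). Some markers of other brain regions were also called between feeding states. Of 5 thalamic markers, 3 fell with restriction and rose with refeeding: Lef1 by log2 changes of -0.32 and 0.30, Rgs16 by -0.31 and 0.33, and Tcf7l2 by -0.28 and 0.27. Over all 17352 genes tested, 1361 were called lower with restriction and 1454 higher with refeeding. Of the 5 striatal markers 1, Adora2a, fell with restriction, with a log2 change of -0.39, and 0 were called with refeeding. Of the 3 noradrenergic markers tested 1, Slc6a2, rose with refeeding, by 0.50, and 0 were called with restriction. Of the 5 interneuron markers 1, Nos1, rose with refeeding, by 0.21. Male control refed replicate 1 had the highest refed value of both, 4.48 CPM of Slc6a2 and 121 CPM of Nos1. Without it the change of Slc6a2 was 0.40 (edgeR, adjusted p = 0.0221) and that of Nos1 was 0.15 and was not called (adjusted p = 0.115). With the block of library numbers neither was called (adjusted p = 0.0941 for Slc6a2 and 0.216 for Nos1), and without the pituitary libraries Nos1 was not (0.0952). The 4 hypothalamic marker genes tested were not called in these comparisons, with a median change of 0.02 with restriction. With both scores in the fit the changes with restriction were 0.58 for Mc4r, 0.32 for Irs2 and 0.33 for Vip (adjusted p = 0.000428, 2.88e-06 and 0.00445). The part of the thalamic, striatal and noradrenergic shares in these changes was not tested.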

How the data were processed

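The deposited table held expected counts per gene, which the authors made with fastp, STAR, Salmon and the mouse genome mm39, per the submitters' processing notes; the role and version of each tool, the annotation and the strand setting are not given in the sources used here. Of the values above 0, 66.1% were whole within 1e-06, and counts were rounded, with an effect on any total of at most 51.1. Genes were filtered with filterByExpr over the 12 groups (minimum count 10, minimum total 15), which left 17352 genes with 99.9% of all counts. TMM factors lay between 0.913 and 1.03, and CPM (counts per 1000000) use them. The main test was edgeR 4.0.16's quasi-likelihood test in R 4.3.3 on all 48 libraries with a mean for each group (36 residual degrees of freedom), with p-values adjusted by Benjamini-Hochberg over all genes in each of 15 tests. Each standard error was derived from the log2 change and its F statistic, and intervals are at 95%. Mice were the replicates, 1 library each. Alternatives were DESeq2 1.42.0, limma 3.58.1 (voom with sample quality weights), RLE factors, no filter, only the groups compared, age, tissue scores, a block of library numbers and leaving libraries out; further fits that left out combinations of libraries, and all refits of list genes, were chosen after seeing the data. The 10 members and all gene lists were chosen with earlier results of these data known. Genes of the lists were named where called in a pooled feeding comparison, up to 6 per list, and the 3 genes with the highest r were named for each member (log2 CPM with a prior count of 2, less group means). The fit was tested on simulated data. An upper limit for 0 counts is 3 counts and covers counting error only.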

Additional observations from a re-analysis of the deposited data

Results flagged for a closer look

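Within each group of 4 mice, 9 of the 120 sets of values, each of 1 member in 1 group, held a mouse far from the other 3, where about 6 (1 in 20) are flagged by chance. Of the 9, 5 were of Pomc. Female knockout restricted replicate 4 was at 128.8 CPM of Pomc beside 1.96 to 3.83 CPM in the rest of its group. Female knockout unrestricted replicate 4 was at 65.3 CPM (others 2.02 to 3.46), male control restricted replicate 4 at 55.3 CPM (others 1.32 to 3.06) and male knockout refed replicate 3 at 35.6 CPM (others 2.22 to 3.32). These 4 are pituitary libraries. Male control refed replicate 2, at 48.9 CPM of Pomc beside 1.58 to 3.37 CPM, is not.

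Agrp stood high in female control restricted replicate 3, at 2.60 CPM beside 0.0850 to 0.308 CPM, and in female knockout refed replicate 4, at 1.00 CPM beside 0.0887 to 0.182 CPM. Avp stood low in male control unrestricted replicate 2, at 2.69 CPM beside 6.21 to 6.80 CPM. Oxt stood high in female knockout unrestricted replicate 4, at 7.03 CPM, where the other 3 mice lay unusually close together, between 5.05 and 5.14 CPM.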

How the results depend on the processing

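Counts of members called moved as follows. For restricted against unrestricted mice the count was 0 with limma, 0 without the pituitary libraries and 0 without them with the hypothalamic score, and 0 to 1 leaving out single libraries. For refed against restricted mice blocking on library numbers gave 0, and the count was 2 without the pituitary libraries with the hypothalamic score, 3 where male control refed replicate 2 was left out as well, and 0 to 2 leaving out single libraries. For refed against unrestricted mice it was 1 with limma, 1 without the pituitary libraries and male control refed replicate 2 with the score, and 0 to 1 leaving out single libraries. In females restriction gave 1 with both scores and 0 to 1 leaving out single libraries. In males refeeding gave 1 with the hypothalamic score, with both scores, and without the pituitary libraries, with or without male control refed replicate 2 and the score, and 0 to 1 leaving out single libraries; refed against unrestricted males gave 1 with limma, 1 without the pituitary libraries and male control refed replicate 2, 2 with the score added, and 0 to 1 leaving out single libraries. Male against female gave 1 under that last fit. The pituitary slope gave 0 without the pituitary libraries, with or without male control refed replicate 2, and the hypothalamic slope 7 to 9 leaving out single libraries. Pomc in refed against restricted mice reversed to 1.15 without the pituitary libraries, with (adjusted p = 0.0413) and without the score. Of the single member values under all alternatives, 7907 kept direction and side of the threshold, 28 came to pass it, 16 no longer passed it and 2 reversed; of 7278 uncalled values 377 changed sign. The cause of these moves was not tested. No paired analysis was possible because the labels give no replicate numbers, and those used here only name mice in the order of deposit; the block of library numbers is no pairing. Of 20 calls of list genes, 1 was lost without male control refed replicate 1, 7 without the pituitary libraries, 6 with the block of library numbers and 1 with both scores. Agrp's median of 4 counts limits its precision.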
